A study of Mus musculus with 12 samples.

Results

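The nuclear-encoded genes of oxidative phosphorylation were followed in sorted splenic B cells from lupus-prone Sle1b mice. Members were taken by symbol alone: names that start with Nduf, Uqcr, Atp5 or Cox followed by a digit from 4 to 8, together with Sdha, Sdhb, Sdhc and Sdhd, leaving out names marked as pseudogenes. This gave 91 of the 43613 genes analysed. By respiratory complex, 36 encode subunits of complex I, 4 of complex II, 8 of complex III, 18 of complex IV and 15 of complex V, and 10 are assembly or accessory factors that share these name stems. Ndufa4 and its relative Ndufa4l2 were counted with complex IV, where the Ndufa4 protein resides. The rule used no measured value. Cox4i1 and Ndufaf8, which the rule would also take, had no entry under these symbols among the genes analysed.

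The libraries came from 6-month-old female mice on a C57BL/6J background, all carrying the lupus susceptibility interval Sle1b, so no group shows B cells without it. The 12 libraries formed 4 groups of 3, from 2 genotypes and 2 sorted populations. The genotypes were B6.Sle1b, called Sle1b here, and B6.Sle1b.IFNaR1-/-, labelled as lacking the type I interferon receptor gene Ifnar1 and called Ifnar1KO here. Non-germinal centre (non-GC) B cells were live, B220+, GL7- and CD95-, and germinal centre (GC) B cells were live, B220+, GL7+ and CD95+. Cells were sorted from pools of splenocytes. Whether the 3 libraries of each group stem from different mice is not stated, so p-values below measure only how far these samples spread, and that spread may be technical.

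Oxidative phosphorylation couples the oxidation of NADH and succinate to the synthesis of ATP in the inner mitochondrial membrane. Complexes I and II pass electrons to ubiquinone, complex III passes them on to cytochrome c, complex IV reduces oxygen, and complex V uses the resulting proton gradient to make ATP. All complexes except complex II combine subunits from the nucleus with subunits from mitochondrial DNA. GC B cells divide rapidly and are selected for antibody affinity, and their use of mitochondrial respiration is a subject of study.

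The names of the deposited tables give 3 batches, with 1 library of each group in each. Estimated reads on named genes were fewest in Sle1b GC replicate 3 (1387000) and most in Ifnar1KO GC replicate 1 (12822000). A single read on a transcript of 500 nt was worth 0.363 to 1.15 FPKM (fragments scaled to transcript length and library size). The 4 libraries of batch 3 stood apart: Actb, a cytoskeletal gene, was at 5.78 to 120 FPKM there and at 286.5 to 738.7 FPKM in the other 8. The summed level of 4 GC markers (Bcl6, S1pr2, Fas and Mki67, of which Fas encodes the sorted CD95) was 49.8 to 88.4 FPKM in the non-GC and 194 to 512 FPKM in the GC libraries of batches 1 and 2. In batch 3 the same sums were 14.3 and 20.1 FPKM in non-GC against 13.3 and 17.05 FPKM in GC libraries, so the sums of the sorted populations overlap there. Single markers went both ways in batch 3. Mki67 was at 1.11 and 0.283 FPKM in non-GC against 5.535 and 5.86 FPKM in GC libraries. Bcl6 was at 8.2 and 4.21 FPKM against 0.966 and 0.261 FPKM, and Fas and S1pr2 overlapped. All 6 B cell markers were detected in all 12 libraries. Ifnar1 was at 14.5, 36.1 and 3.45 FPKM in Sle1b non-GC cells against 51.1, 69.1 and 2.58 FPKM in the libraries labelled Ifnar1KO. In GC cells it was at 8.11, 9.89 and 6.80 FPKM in Sle1b against 14.1, 15.4 and a listed 0 FPKM. The transcript level is thus higher under the Ifnar1KO label in batches 1 and 2. Such gene-level values do not show whether the receptor is lost, so every direction between genotypes rests on the labels. Ifnar1KO below means the libraries labelled so.

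Promoters of some members carry stretches that match binding motifs of known regulators of respiratory genes, and a few are printed as examples. Promoter sequences of 300 bases (250 before to 50 after the start) were found in RefSeq (GRCm38.p6) for 76 of the 91. The core motif GCATGCGC of nuclear respiratory factor 1, searched on both strands, occurred in 12 of 76 (15.8%) against 824 of 27025 genes with a promoter (3.05%). Its longer palindromic form, which contains the core and is the run of capitals in Cox6a1 and Atp5g2 below, occurred in 7 (9.21% against 1.07%). The ETS motif CCGGAAGT, of the class bound by nuclear respiratory factor 2, occurred in 5 (6.58% against 4.31%), near the share of all genes. The YY1 motif AAGATGGC occurred in 11 (14.5% against 3.19%) and is not marked below. The 250 bases before the start are given below for 5 genes, 5′ to 3′ on the strand of the gene, with the motif in capitals: the nuclear respiratory factor 1 motif in Cox6a1, Atp5g2 and Sdhb, and the ETS motif, here as its reverse complement, in Atp5h and Uqcrh.
Cox6a1 chr5:115348959-115349208 (minus strand): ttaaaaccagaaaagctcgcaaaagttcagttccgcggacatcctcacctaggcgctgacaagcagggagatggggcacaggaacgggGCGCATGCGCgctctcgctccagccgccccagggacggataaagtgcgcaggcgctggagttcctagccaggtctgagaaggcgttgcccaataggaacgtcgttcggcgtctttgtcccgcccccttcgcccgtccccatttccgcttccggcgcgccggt
Atp5g2 chr15:102671048-102671297 (minus strand): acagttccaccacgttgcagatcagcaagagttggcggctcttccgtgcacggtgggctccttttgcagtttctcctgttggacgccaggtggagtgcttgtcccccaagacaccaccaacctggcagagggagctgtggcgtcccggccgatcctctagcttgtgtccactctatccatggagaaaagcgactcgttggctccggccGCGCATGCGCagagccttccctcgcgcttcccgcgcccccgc
Sdhb chr4:140961021-140961270 (plus strand): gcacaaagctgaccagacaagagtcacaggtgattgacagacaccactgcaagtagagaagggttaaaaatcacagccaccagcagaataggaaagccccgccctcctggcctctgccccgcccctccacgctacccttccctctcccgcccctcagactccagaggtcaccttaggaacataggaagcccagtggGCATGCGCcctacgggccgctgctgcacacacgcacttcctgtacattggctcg
Atp5h chr11:115419920-115420169 (minus strand): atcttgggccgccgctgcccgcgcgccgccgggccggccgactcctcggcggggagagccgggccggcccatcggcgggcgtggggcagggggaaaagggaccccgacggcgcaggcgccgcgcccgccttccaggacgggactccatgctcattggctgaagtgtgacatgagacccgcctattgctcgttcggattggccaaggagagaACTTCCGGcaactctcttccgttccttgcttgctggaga
Uqcrh chr4:116075071-116075320 (minus strand): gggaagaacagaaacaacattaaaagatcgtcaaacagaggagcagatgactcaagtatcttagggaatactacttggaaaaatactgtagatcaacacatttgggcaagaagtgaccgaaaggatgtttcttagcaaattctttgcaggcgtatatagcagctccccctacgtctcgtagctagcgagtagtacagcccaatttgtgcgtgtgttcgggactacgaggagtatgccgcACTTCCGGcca
A match is a stretch of letters and not a measured binding site. The 12 tested genes with the core motif had a median GC minus non-GC difference of -0.42 in Sle1b and -0.35 in Ifnar1KO on the log2(FPKM + 1) scale, and the 61 tested genes with a promoter and no core motif had -0.52 and -0.63, given without a test.

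Genes with 1 FPKM or more in 3 or more libraries were tested, which left 84 of the 91 and 14607 genes in all. The 7 that did not were all complex IV isoforms restricted to muscle, lung, testis or other tissues. Cox4i2, Cox7a1, Cox8b, Cox8c and Ndufa4l2 were listed at 0 in all 12 libraries. A listed 0 still allows a low true level. For scale, 3 reads on a transcript of 500 nt are worth 1.09 to 3.45 FPKM depending on the library. Cox6a2, the striated muscle isoform, was at 1.60 FPKM in Sle1b non-GC replicate 1, at 0.967 FPKM in Ifnar1KO non-GC replicate 2 and at 0 elsewhere. Cox7b2, a testis isoform, was at 16.2 FPKM in Sle1b non-GC replicate 3 and at 0 in the other 11. Cox6b2, another testis isoform, was the only one of this kind to pass, with 4 libraries at 1 FPKM or more; its highest values were 9.5 and 5.95 FPKM in Ifnar1KO GC replicates 3 and 2. Their ubiquitous partners were expressed in batches 1 and 2: Cox6a1 at a median of 38.2 FPKM over those 8 libraries, Cox8a at 39.4, Cox7b at 31.6, Cox6b1 at 10.5 and Cox7a2 at 7.86 FPKM. Of the genes that passed, Ndufaf2 was nearest to the filter, with exactly 3 libraries at 1 FPKM or more, and these belonged to 3 different groups, so no member entered through 1 group alone. Ndufaf6, Ndufa11, Ndufc1 and Cox6b2 followed with 4 each.

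Atp5b, which encodes the catalytic beta subunit of ATP synthase (chromosome 10, 128083273 to 128090391, GRCm38), stood far above the rest. It measured 311, 370 and 103 FPKM in Sle1b non-GC, 269, 440 and 0 FPKM in Sle1b GC, 362, 302 and 71.2 FPKM in Ifnar1KO non-GC and 201, 546 and 22.2 FPKM in Ifnar1KO GC libraries (replicates 1, 2 and 3). The 8 values of batches 1 and 2 lie within 201 to 546 FPKM with the cell types overlapping, and batch 3 is lower in every group. Over those 8 libraries the next highest medians were those of Cox7c (56.0 FPKM, range 14.1 to 102), a small subunit of complex IV, and Cox7a2l (45.1 FPKM), a factor of supercomplex assembly. By complex, the median gene had 8.34 FPKM in complex I (36 genes, 0 to 28.3), 6.71 in complex II (4 genes, 3.69 to 41.3), 12.9 in complex III (8 genes, 1.60 to 40.7), 31.6 in complex IV (11 genes tested, 0.468 to 56.0) and 17.7 in complex V (15 genes, 5.86 to 336), against 3.01 for the assembly and accessory factors. FPKM is per length, so these levels compare genes only as far as that scaling holds for short transcripts. The median transcript of the 91 is 683 nt. The ranges of the complexes overlap, and levels across batches come from separately normalised tables. The map of levels shows both the bright row of Atp5b and the dark columns of batch 3.

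**Figure D1:**
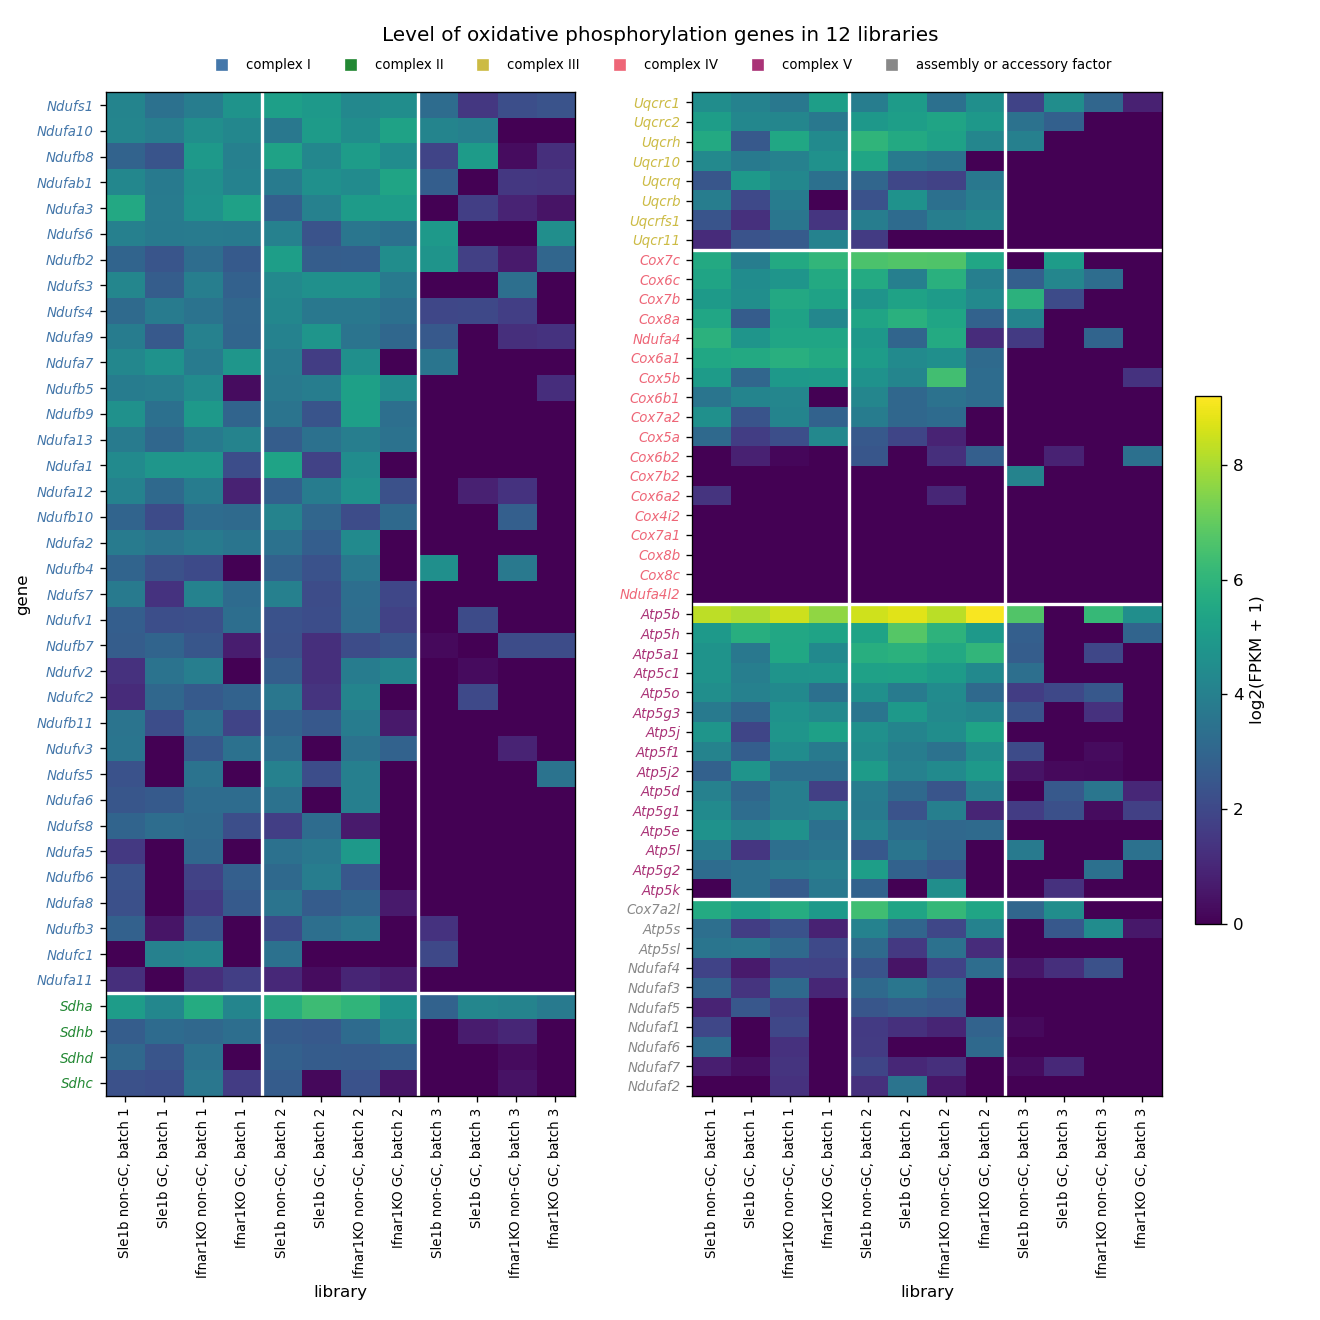
Level of the members, with 1 of the 91 left out (rows, coloured by complex and ordered by mean within it) in the 12 libraries (columns, grouped by batch), as log2(FPKM + 1). Atp5b is the brightest row, 5 complex IV isoforms are dark in all libraries, and most genes are dark in the 4 libraries of batch 3.

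Listed zeros were far fewer in batches 1 and 2 than in batch 3. Of the 84 genes tested, 4, 0 and 48 were listed at 0 in Sle1b non-GC replicates 1, 2 and 3, and 9, 7 and 57 in Sle1b GC. In Ifnar1KO the numbers were 0, 3 and 52 in non-GC and 15, 23 and 63 in GC libraries. In batches 1 and 2 the GC library had more zeros than its non-GC partner in all 4 pairs. The share at 0 also rose in all 4 for other protein-coding genes under 1000 nt. In Sle1b it went from 13.3% to 13.8% and from 11.4% to 15.6%, in Ifnar1KO from 7.74% to 24.1% and from 10.4% to 21.5%. For all genes tested it went from 18.9% to 17.3% and from 15.5% to 17.1% in Sle1b. In Ifnar1KO that share went from 12.3% to 26.4% and from 13.5% to 20.9%. As a share, zeros made up 57.1% to 75% of the members in batch 3, against 34.9% to 58.9% of all genes tested. Other protein-coding genes under 1000 nt, a class that holds 57 of the 84, were at 0 in 43.6% to 66.7%. Only 6 members were above 0 in all 4 libraries of batch 3, and 28 were at 0 in all 4. In the non-GC libraries of batches 1 and 2, 78 of the 84 were never at 0 (76.3% of all genes tested), and in the GC libraries 51 were never at 0 (59.9%). With so many zeros, batch 3 carries little information on these genes, and its medians of 0 are those of genes undetected on both sides.

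**Figure D2:**
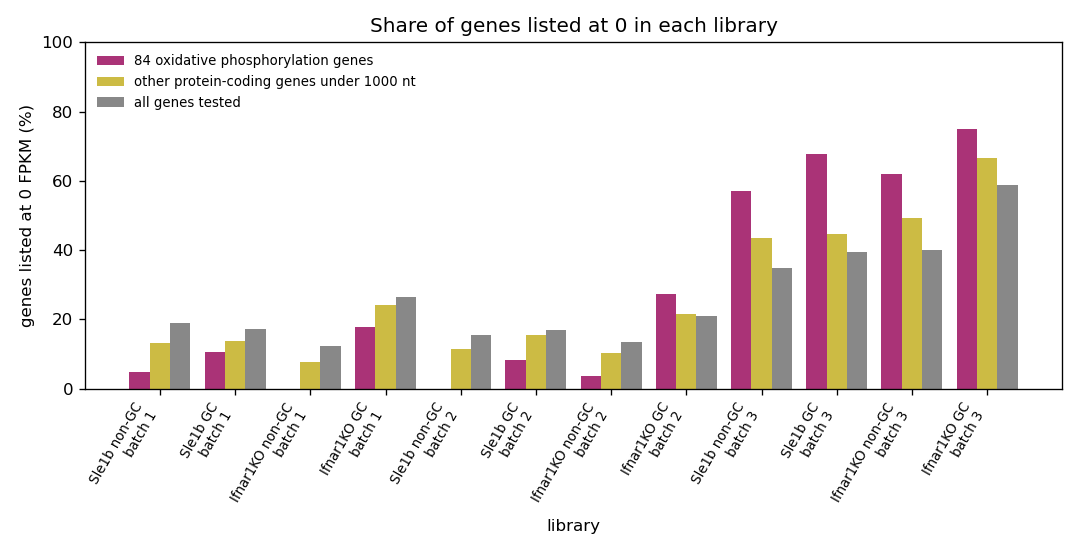
Share of genes listed at 0 FPKM (y axis, percent) in each library (x axis) for the 84 members tested, for other protein-coding genes under 1000 nt and for all 14607 genes tested. The members are below all genes in 7 of the 8 libraries of batches 1 and 2, the exception being Ifnar1KO GC of batch 2, and above them in all 4 of batch 3; bars are absent where no member is at 0.

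In Sle1b mice, most members had lower values in GC than in non-GC cells, but none passed the test. Of the 84, 62 lay below 0 (73.8%, against 55.8% of all genes tested), and the median difference was -0.52 on the log2(FPKM + 1) scale, against -0.11 for all genes. With limma's moderated test and Benjamini-Hochberg adjustment over 14607 genes, 0 of 84 passed an adjusted p of 0.05 (background 0.0% of all genes), and the smallest adjusted p of a member was 0.439. At an unadjusted p under 0.05 there were 8 members (9.52%) against 9.5% of all genes, so their number is that of the background. All 8 were lower, where 5.55% of all genes were lower and 3.95% higher. With batches 1 and 2 alone and the filter redone (12257 genes), 0 of 84 passed (background 0.0571%), and 5 were lower (background 7.71%) and 1 higher (5.92%) at an unadjusted p under 0.05. The medians by batch were -0.70, -0.69 and 0.00, against 0.00 in each batch for all genes. Counted by batch, 60, 56 and 26 members were lower in GC cells and 23, 28 and 21 were higher.

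In Ifnar1KO mice the picture was alike in direction. Of the 84, 64 lay below 0 (76.2%, against 67.8% of all genes), with a median of -0.62 against -0.39. None passed an adjusted p of 0.05 with limma (background 0.00685%, that is 1 gene of all), and the smallest adjusted p was 0.324. At an unadjusted p under 0.05 there were 13 members (15.5%), all lower, against 12.3% of all genes in either direction, 10.1% lower and 2.22% higher. With batches 1 and 2 alone and the filter redone, 0 of 84 passed (background 0.31%), and 19 were lower (22.6%, background 15.4%) and 1 higher (background 3.92%) at an unadjusted p under 0.05. No member had an adjusted p below 0.0904 there. The medians by batch were -0.68, -0.69 and 0.00, against -0.45, -0.16 and 0.00 for all genes. Relative to the median of all genes the members lay at -0.41 in Sle1b and -0.23 in Ifnar1KO. This gap cannot change when libraries are recentred on the median gene, which moved the median of all genes by 0.13 and 0.46. Single libraries moved it: in Ifnar1KO it was -0.04 without GC replicate 2, -0.37 without GC replicate 1, -0.50 without GC replicate 3 and -0.42 without non-GC replicate 3. In Sle1b it was -0.16 without non-GC replicate 2, -0.27 without GC replicate 2, -0.28 without GC replicate 1 and -0.61 without non-GC replicate 3. Fewer cells of a type and less RNA per cell cannot be told apart in such bulk samples. The summed FPKM of all 91 genes was lower in GC cells in 6 of 6 pairs: GC libraries held 69.4%, 90.6% and 48.3% of the paired non-GC sum in Sle1b and 70.8%, 79.4% and 54.7% in Ifnar1KO. Without Atp5b these were 65.2%, 83.7% and 63.5%, and 74.8%, 59.9% and 65.9%. The sum over all genes tested other than mitochondrially encoded ones moved as well, to 172%, 88.1% and 20.6% in Sle1b and 159%, 88.5% and 13% in Ifnar1KO. As a share of that sum, the members went from 0.672% to 0.271%, from 0.607% to 0.625% and from 0.112% to 0.262% in Sle1b. In Ifnar1KO they went from 0.697% to 0.310%, from 0.619% to 0.555% and from 0.0421% to 0.177%, so the share was lower in GC cells in 3 of 6 pairs and higher in 3.

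**Figure D3:**
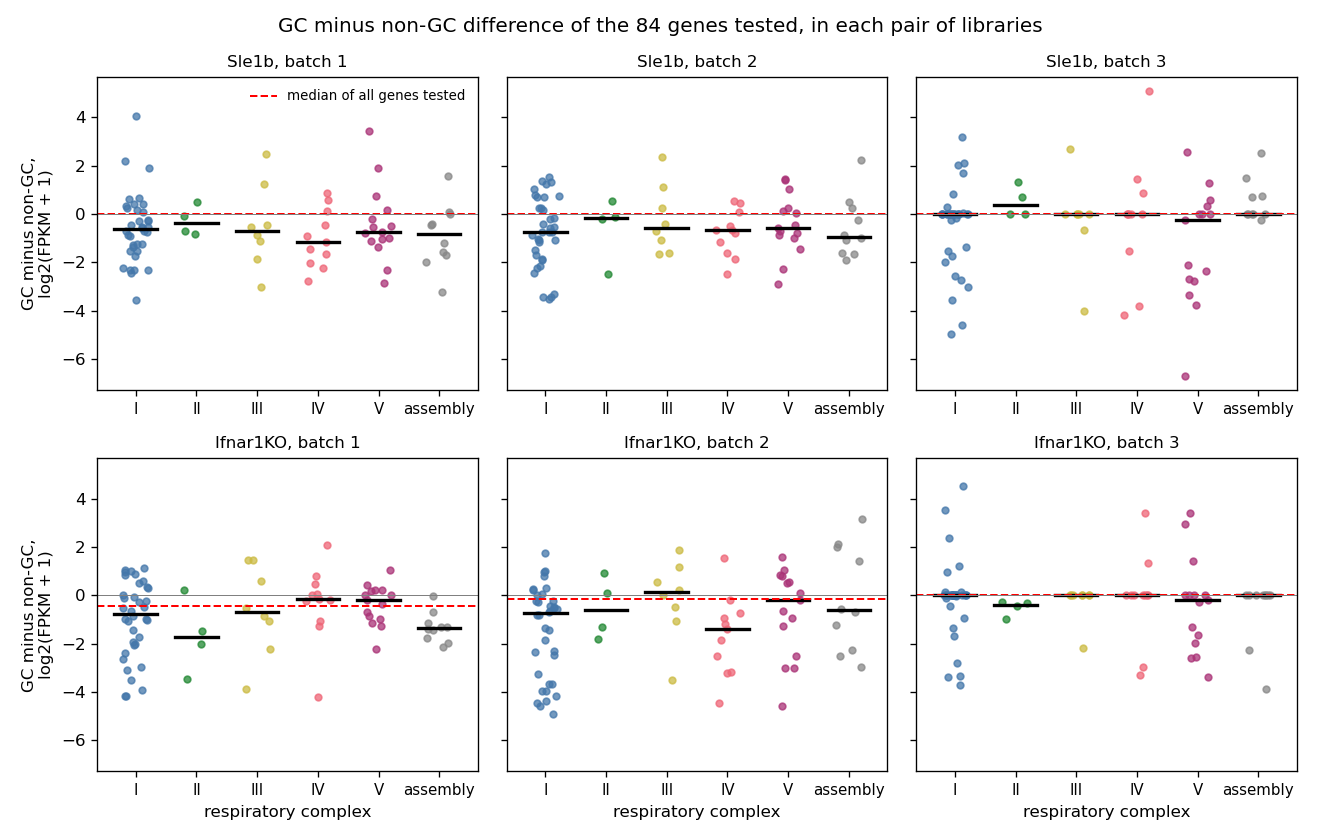
GC minus non-GC difference on the log2(FPKM + 1) scale (y axis) of each of the 84 genes tested (points), by respiratory complex (x axis; assembly includes accessory factors), in each of the 6 pairs of libraries (panels). Black bars are medians of the members and the dashed red line is the median of all 14607 genes; in batch 3 most points lie at 0 because the gene is listed at 0 in both libraries.

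In batches 1 and 2, 15 of 84 members were lower in GC cells in all 4 pairs (17.9%), against 18.1% of all genes. None was higher in all 4 pairs, against 7.26%. Across all 6 pairs, Ndufb4 and Ndufa4 were lower throughout (2.38%, against 5.82% of all genes) and none was higher throughout (1.02%). The 15 were Ndufs5, Ndufb9, Ndufs7, Ndufb4, Ndufb8, Ndufb11, Ndufa2 and Ndufs6 of complex I, Sdhc of complex II, Uqcrh of complex III, Cox7a2 and Ndufa4 of complex IV, Atp5o of complex V, and Cox7a2l and Ndufaf7. Ranked by the smallest of the 4 differences, Ndufs5, a supernumerary subunit, came first at 1.88 to 3.97, followed by Ndufb9 at 1.14 to 1.997. Ndufs5 was listed at 0 in Sle1b GC replicate 1 and in Ifnar1KO GC replicates 1 and 2. In batch 3 it went the other way in Ifnar1KO, from a listed 0 in non-GC to 10.5 FPKM in GC cells. It was at 0 in the non-GC and GC libraries of Sle1b in batch 3.

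Complex I oxidises NADH and pumps protons. Of its 36 genes, 26 lay below 0 in Sle1b (median -0.57) and 29 in Ifnar1KO (-0.78). Its 7 core subunits, which carry the flavin, the iron-sulphur clusters and the quinone site, had medians of -0.42 and -0.74. Its 29 supernumerary subunits had medians of -0.66 and -0.81.

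Ndufb4, a membrane arm subunit (chromosome 16, 37647170 to 37654453), had the smallest p of all members in Ifnar1KO. It measured 3.20, 11.8 and 12 FPKM in Ifnar1KO non-GC replicates 1, 2 and 3 and was listed at 0 in all 3 GC replicates. In Sle1b it measured 6.84, 6.26 and 23.1 FPKM in non-GC and 3.85, 4.00 and 0 FPKM in GC libraries. It was lower in GC cells in all 6 pairs of libraries, as were 5.82% of all genes tested. The log2 difference was -3.15 (SE 0.78; limma, adjusted p = 0.324) in Ifnar1KO and -1.94 (SE 0.78; adjusted p = 0.491) in Sle1b. Without batch 3 the value in Sle1b was -0.62, while leaving out only Sle1b GC replicate 3 gave -0.90 and only Sle1b non-GC replicate 3 gave -1.22.

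Ndufa12, an accessory subunit near the NADH-oxidising arm, measured 13.4, 24.3 and 1.53 FPKM in Ifnar1KO non-GC and 0.846, 3.91 and 0 FPKM in Ifnar1KO GC replicates 1, 2 and 3. It was lower in GC cells in every batch, by 2.96, 2.37 and 1.34 on the log2 scale, although the groups overlap when the batches are mixed. The fitted difference was -2.22 (SE 0.64; limma, adjusted p = 0.328). In Sle1b it measured 16.0, 6.05 and 0 FPKM in non-GC and 7.92, 13.6 and 0.783 FPKM in GC libraries, with no common direction (0.32, SE 0.64).

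Ndufa5, another accessory subunit, measured 7.42, 29.4 and 0 FPKM in Ifnar1KO non-GC and was listed at 0 in all 3 Ifnar1KO GC libraries. The difference was -2.67 (SE 0.84; limma, adjusted p = 0.328), and -1.58 without Ifnar1KO GC replicate 2. In Sle1b GC cells it was at 0, 11.8 and 0 FPKM against 1.86, 9.88 and 0 FPKM in non-GC cells, so the groups overlap there. Ndufa1, a small membrane arm subunit encoded on the X chromosome, showed the same form in Ifnar1KO, with 27.2, 21.1 and 0 FPKM in non-GC and 3.5, 0 and 0 FPKM in GC libraries (-2.37, SE 0.89; limma, adjusted p = 0.345). That value was -1.50 without Ifnar1KO GC replicate 2.

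Ndufs3, a core subunit, measured 14.2, 23.5 and 9.34 FPKM in Ifnar1KO non-GC and 6.33, 13.0 and 0 FPKM in GC replicates 1, 2 and 3. It was lower in GC cells in each batch (-1.74, SE 0.70; limma, adjusted p = 0.362), although the groups overlap when the batches are mixed, and the difference was -0.79 without Ifnar1KO non-GC replicate 3. Ndufb3 (-2.02, SE 0.78) and Ndufb11 (-1.56, SE 0.65), both of the membrane arm, were lower in GC cells in batches 1 and 2 and at 0 in both cell types of batch 3. Leaving out Ifnar1KO GC replicate 2 gave -0.92 for Ndufb11.

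Ndufv3, an accessory subunit of the NADH-oxidising part (chromosome 17, 31520115 to 31531331), measured 10.9, 8.81 and 0 FPKM in Sle1b non-GC and was listed at 0 in all 3 Sle1b GC libraries. In Ifnar1KO it measured 4.84, 10 and 0.902 FPKM in non-GC and 9.80, 6.49 and 0 FPKM in GC libraries, where the cell types overlap. The difference was -2.29 (SE 0.73; limma, adjusted p = 0.439) in Sle1b and -0.20 (SE 0.73, adjusted p = 0.924) in Ifnar1KO. Their contrast did not pass the interaction test (2.09, SE 1.03; limma, adjusted p = 0.992).

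Ndufs6, an accessory subunit with a zinc site, measured 15.0, 15.6 and 30.7 FPKM in Sle1b non-GC and 12.4, 4.16 and 0 FPKM in GC replicates 1, 2 and 3, and its difference of -2.31 (SE 0.96; limma, adjusted p = 0.4915) was -1.34 without Sle1b non-GC replicate 3 and -1.49 without Sle1b GC replicate 3. Ndufb2 was counted at a locus that also carries Adck2, so its value cannot be assigned to 1 of the genes. That locus measured 6.77, 34.4 and 26.4 FPKM in Sle1b non-GC and 4.39, 5.49 and 2.35 FPKM in GC replicates 1, 2 and 3. It was lower in GC cells in each batch of Sle1b (-2.0, SE 0.72, limma, adjusted p = 0.475). Ndufs7, a core iron-sulphur subunit, measured 12.9, 15.1 and 0 against 1.56, 3.36 and 0 FPKM (-1.44, SE 0.64; limma, adjusted p = 0.516). Without Sle1b GC replicate 1 it was -0.82.

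**Figure D4:**
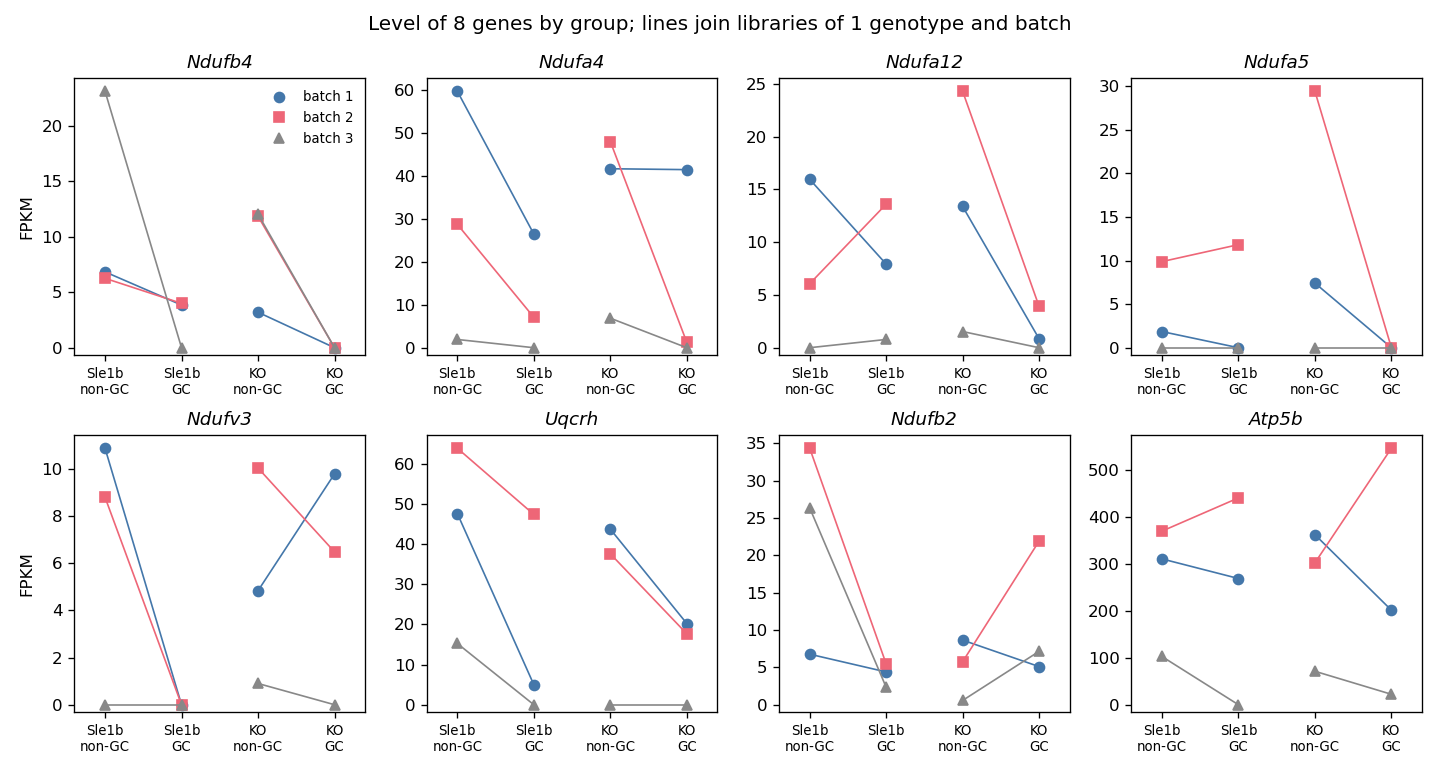
Level in FPKM (y axis, linear, a separate scale in each panel) of 8 genes in the 4 groups (x axis; KO stands for Ifnar1KO), with 1 point per library and lines joining the non-GC and GC libraries of 1 genotype and batch. Ndufb4 and Ndufa4 are lower at the GC end of all 6 lines, whereas Atp5b and Ndufb2 move both ways.

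Complex II is succinate dehydrogenase, which is also an enzyme of the citric acid cycle and has no subunit from mitochondrial DNA. Sdha, its flavoprotein (chromosome 13, 74322254 to 74350280), was detected in all 12 libraries: 33.0, 53.2 and 6.42 FPKM in Sle1b non-GC, 18.1, 78.9 and 17.8 in Sle1b GC, 49.7, 63.4 and 16.5 in Ifnar1KO non-GC, and 17.3, 24.6 and 13.0 in Ifnar1KO GC replicates 1, 2 and 3. It was lower in GC cells in all 3 Ifnar1KO pairs (-1.04, SE 0.58; limma, adjusted p = 0.467) and varied in sign in Sle1b (0.36, SE 0.58). Sdhc, a membrane anchor, measured 11.6, 3.94 and 0.373 FPKM in Ifnar1KO non-GC and 2.13, 0.413 and 0 FPKM in Ifnar1KO GC libraries (-1.43, SE 0.62; limma, adjusted p = 0.390). Sdhd, the other anchor, gave -1.21 (SE 0.71) and Sdhb, the iron-sulphur subunit, 0.06 (SE 0.57) in Ifnar1KO. The differences in Sle1b were -0.85 (SE 0.62) for Sdhc, -0.29 (SE 0.71) for Sdhd and 0.37 (SE 0.57) for Sdhb.

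Complex III passes electrons from ubiquinol to cytochrome c. Its 8 genes had medians of -0.27 in Sle1b and -0.49 in Ifnar1KO, with 5 of 8 below 0 in each. Uqcrh, the hinge subunit near the cytochrome c site (chromosome 4, 116066965 to 116075071), measured 47.6, 63.9 and 15.3 FPKM in Sle1b non-GC and 4.99, 47.4 and 0 FPKM in Sle1b GC replicates 1, 2 and 3. It was lower in GC cells in each batch, although the GC library of batch 2 lies above the non-GC library of batch 3. The difference was -2.49 (SE 0.80; limma, adjusted p = 0.439). Leaving out Sle1b non-GC replicate 3 gave -1.55. In Ifnar1KO it measured 43.7, 37.6 and 0 FPKM in non-GC and 20.2, 17.7 and 0 FPKM in GC libraries (-0.71, SE 0.80). Uqcrc1 and Uqcrc2, the large core subunits, had the highest mean log2(FPKM + 1) of the complex over the 12 libraries (3.72 and 3.66), while Uqcrh had the highest median FPKM over batches 1 and 2 (40.7). In Sle1b their differences were 1.12 (SE 0.78) and -0.42 (SE 0.73), with Uqcrc1 at 21.9, 14.0 and 2.58 FPKM in Sle1b non-GC against 15.7, 31.9 and 22.1 FPKM in Sle1b GC libraries.

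Complex IV reduces oxygen to water. Among its 10 ubiquitous genes, 9 lay below 0 in each genotype, with medians of -0.77 in Sle1b and -0.89 in Ifnar1KO. In Ifnar1KO the 2 informative batches differed: the median of these genes was -0.11 in batch 1 and -1.63 in batch 2. In Sle1b it was -1.30 and -0.66. Ndufa4, once assigned to complex I, measured 59.8, 28.7 and 1.92 FPKM in Sle1b non-GC and 26.5, 7.08 and 0 FPKM in Sle1b GC replicates 1, 2 and 3. In Ifnar1KO it measured 41.7, 48.0 and 6.88 FPKM in non-GC and 41.5, 1.26 and 0 FPKM in GC libraries. It was lower in GC cells in all 6 pairs, but in Ifnar1KO batch 1 by only 0.0070 on the log2 scale. The differences were -1.52 (SE 0.73; limma, adjusted p = 0.536) and -2.48 (SE 0.73; adjusted p = 0.328), the latter -1.61 without Ifnar1KO GC replicate 2. Cox8a measured 42.3, 40.4 and 17 FPKM in Sle1b non-GC against 5.32, 56.3 and 0 FPKM in GC libraries (-2.16, SE 0.91; limma, adjusted p = 0.492). Its sign changed between batches 1 and 2, and the value was -1.11 without Sle1b non-GC replicate 3 and -1.40 without Sle1b GC replicate 1. Cox7c and Cox6c, highest in the complex by mean log2(FPKM + 1) over the 12 libraries, gave 1.16 (SE 1.11) and -0.37 (SE 0.85) in Sle1b and -0.24 (SE 1.11) and -1.44 (SE 0.85) in Ifnar1KO.

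Complex V is ATP synthase. Its 15 genes had medians of -0.66 in Sle1b, with 12 below 0, and -0.47 in Ifnar1KO, with 10 below 0. The 6 genes of the catalytic head and stalk had medians of -0.83 and -0.70. The 9 genes of the membrane part and peripheral stalk had -0.66 and 0.03. Atp5o, which encodes a subunit of the peripheral stalk, was counted among the 6, so the 2 lists do not separate these parts cleanly. Atp5b itself showed no common direction in batches 1 and 2. Its difference in Sle1b of -2.22 (SE 1.13; limma, adjusted p = 0.563) rested on Sle1b GC replicate 3: leaving it out gave -0.27, leaving out Sle1b non-GC replicate 3 gave -1.18, and batches 1 and 2 gave 0.02. Atp5o, the stalk subunit that confers oligomycin sensitivity, shares its locus with Donson. That locus measured 19.8, 20.4 and 4.83 FPKM in Ifnar1KO non-GC and 9.59, 7.88 and 0 FPKM in GC replicates 1, 2 and 3 (-1.60, SE 0.52; limma, adjusted p = 0.328). Atp5f1, subunit b of the peripheral stalk, measured 16.1, 20.7 and 3.35 FPKM in Sle1b non-GC and 5.65, 13.7 and 0 FPKM in GC libraries (-1.35, SE 0.61; limma, adjusted p = 0.516). Leaving out Sle1b non-GC replicate 3 gave -0.83. Atp5h, a peripheral stalk subunit second in the complex by mean log2 level, gave -0.18 (SE 0.85) and 0.61 (SE 0.85).

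Atp5g1, Atp5g2 and Atp5g3 encode the same mature subunit c, the rotor ring, with different import sequences. Over batches 1 and 2 their medians were 13.7, 9.14 and 17.8 FPKM, and their ranges overlapped. Their differences in Sle1b were -0.66 (SE 0.77), -0.70 (SE 1.04) and -0.57 (SE 0.71), and in Ifnar1KO -0.47 (SE 0.77), -1.90 (SE 1.04) and -0.63 (SE 0.71). None of these passed the limma test, with adjusted p of 0.459 to 0.865. Of the 10 assembly and accessory factors, 7 lay below 0 in Sle1b (median -0.27) and 8 in Ifnar1KO (-0.75). By batch, 7, 7 and 1 of the 10 were lower in GC cells in Sle1b, where 49.1%, 45.0% and 45.3% of all genes tested were lower. In Ifnar1KO these were 10, 6 and 2, beside 62.6%, 54.4% and 45.9%.

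In non-GC cells the median of Ifnar1KO minus Sle1b was -0.04, against 0.01 for all genes, with 44 of 84 below 0. With limma 0 of 84 passed an adjusted p of 0.05 (background 0.0%), and 1 had an unadjusted p under 0.05 (1.19%, against 1.66% of all genes, 0.863% lower and 0.801% higher). That was the locus of Ndufb2 and Adck2, at 6.77, 34.4 and 26.4 FPKM in Sle1b against 8.65, 5.75 and 0.569 FPKM in Ifnar1KO replicates 1, 2 and 3. The groups overlap, and the difference of -2.07 (SE 0.72; limma, adjusted p = 1) was -1.35 without Ifnar1KO non-GC replicate 3. The next 4 by p, Uqcrh, Ndufs6, Uqcrc2 and Atp5c1, had differences of -1.63, -1.87, -1.32 and -1.19. In each of these 4 the gene was listed at 0 in Ifnar1KO non-GC replicate 3 and at 9.33 to 30.7 FPKM in Sle1b non-GC replicate 3. Without Sle1b non-GC replicate 3 they were -0.70, -0.90, -0.61 and -0.17, and without Ifnar1KO non-GC replicate 3 -0.97, -0.75, -0.58 and -0.76. Uqcrc2 was at -1.99 without Sle1b non-GC replicate 2.

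In GC cells the median between genotypes was -0.36, against -0.25 for all genes, and 50 of 84 lay below 0 (59.5%, against 63.3%). By batch it was 0.07, -0.31 and 0.00, and with recentred libraries it was 0.02. With limma 0 of 84 passed (background 0.0%), and 5 had an unadjusted p under 0.05 (5.95%, against 6.57% of all genes), of which 3 were lower (background 5.31%) and 2 higher (background 1.25%) in Ifnar1KO. Ndufv3 was higher, at 9.80, 6.49 and 0 FPKM in Ifnar1KO GC and 0 in all Sle1b GC libraries (2.11, SE 0.73; limma, adjusted p = 0.741). Atp5j, coupling factor 6 of the peripheral stalk, was at 36.1, 39.4 and 0 FPKM against 2.82, 16.9 and 0 FPKM (1.49, SE 0.65; limma, adjusted p = 0.741), and 0.60 without Sle1b GC replicate 1. Ndufaf5, an assembly factor that modifies a core subunit, was listed at 0 in all 3 Ifnar1KO GC libraries against 4.62, 5.53 and 0 FPKM in Sle1b (-1.73, SE 0.63; limma, adjusted p = 0.741). Ndufa12 (-1.56, SE 0.64) was -0.99 without Ifnar1KO GC replicate 1, and Ndufs8, a core iron-sulphur subunit (-1.44, SE 0.65), was -0.71 without Sle1b GC replicate 2.

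The test of whether the cell type difference itself depends on genotype gave no member either. With limma 0 of 84 passed the interaction (background 0.0%), and 4 had an unadjusted p under 0.05 (4.76%, against 3.74% of all genes, 3.05% lower and 0.698% higher): Ndufb2, Ndufa12, Ndufs6 and Ndufaf5. Their estimates were 3.16 (SE 1.02), -2.54 (SE 0.90), 3.71 (SE 1.36) and -2.03 (SE 0.89), with adjusted p = 0.992 each. Ndufa12 had the same sign in the 3 batches (-2.04, -3.41 and -2.18), and Ndufs6 took 9.52 from batch 3 against 0.15 and 1.46 from batches 1 and 2. The members' median was -0.27, against -0.26 for all genes, and 0.06 with recentred libraries. The 2 genotype-specific GC comparisons use separate libraries but come from 1 fit, with the batch block and 1 estimate of each gene's spread in common. Each also shares its samples with the genotype comparisons above.

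Likeness to the members was described by correlation with the median of the complex I to V genes over the 12 libraries, after removal of batch means. That median is 0 throughout batch 3, so a gene that varies there has a lower correlation by construction, and genes at 0 there are favoured. Among the members, Ndufs7 and Cox7a2 were closest to it (both 0.92). The genes of the whole table closest to the median were Snapc5 (0.98), Cyb561a3 (0.98), 1810022K09Rik (0.98), A630033H20Rik (0.97) and Gm26617 (0.96), none of them a member.

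Other genes of mitochondrial energy metabolism were set beside the members. The 3 tested items that hold mitochondrially encoded subunits had fitted differences above 0 in both genotypes, with medians of 0.95 and 0.72 and no item at an unadjusted p under 0.05 with limma. The largest of these, which merges 9 mitochondrial genes, went in batch 1 from 26997 to 238780 FPKM in Sle1b and from 26889 to 134520 FPKM in Ifnar1KO, against 44185 to 39065 and 28279 to 37497 FPKM in batch 2. In batch 3 all 3 items were below 0 in both genotypes (medians -0.15 and -0.58), and the merged item went from 2664.5 to 2405.7 and from 3522.9 to 2351.8 FPKM. Cycs (cytochrome c) and Cyc1 (the complex III heme subunit) had a median of -0.44 in Sle1b and 0.32 in Ifnar1KO. Among 35 respiratory chain assembly factors outside the naming rule, the median was -0.16 in Sle1b and -0.56 in Ifnar1KO. For 17 citric acid cycle enzymes it was -0.16 and -0.69, for 16 mitochondrial carriers and import genes -0.68 and -0.49, and for 15 regulators of mitochondrial transcription and biogenesis 0.17 and -0.49. For 14 core subunits of the proteasome, a complex outside mitochondria, it was -0.79 and -0.54. Other protein-coding genes under 1000 nt had -0.16 and -0.48. No gene of these lists was used to choose the members, and the difference between lists was not tested.

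**Figure D5:**
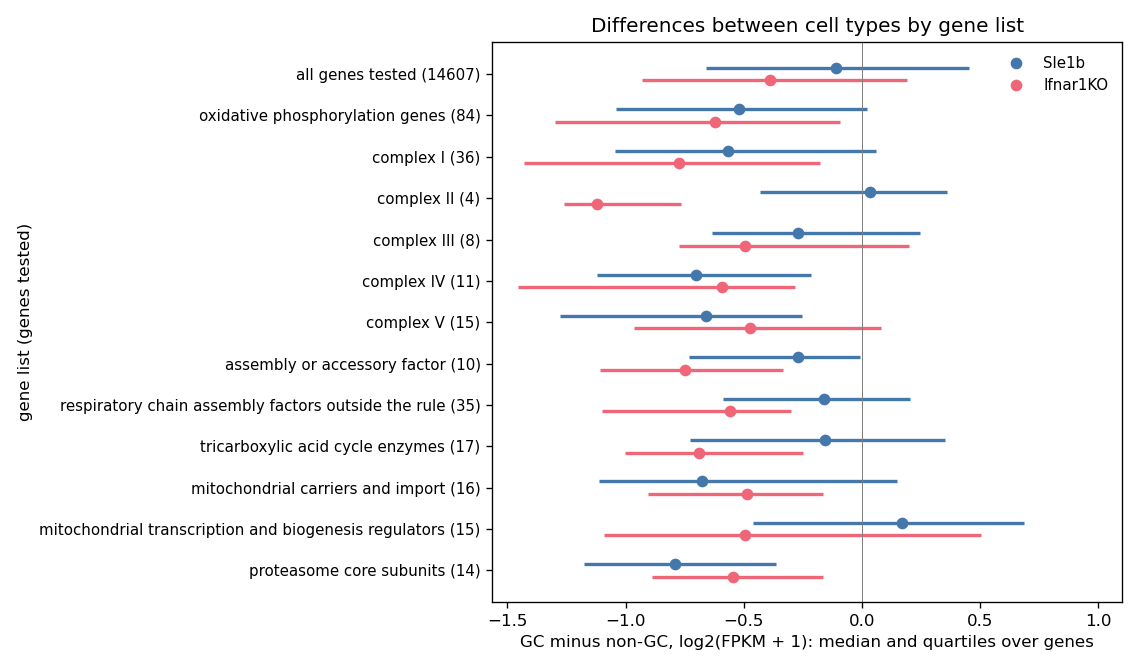
Median (points) and quartiles over genes (lines) of the GC minus non-GC difference on the log2(FPKM + 1) scale (x axis) for each gene list (y axis, genes tested in brackets), in Sle1b and Ifnar1KO. The oxidative phosphorylation genes are at -0.52 and -0.62 and the proteasome core subunits at -0.79 and -0.54.

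Markers of other cells moved with the sort in part. The summed level of 6 B cell markers was 208 to 1963 FPKM in Sle1b non-GC, 19.9 to 1653 in Sle1b GC, 222 to 2002 in Ifnar1KO non-GC and 22.7 to 1759 FPKM in Ifnar1KO GC libraries. The fitted GC minus non-GC difference was below 0 for all 6 B cell markers in both genotypes. Its medians were -1.27 and -1.24 against -0.52 and -0.62 for the members. By batch, the marker medians were -0.62, -0.38 and -3.39 in Sle1b and -1.003, -0.036 and -2.16 in Ifnar1KO. The members had -0.70, -0.69 and 0.00 in Sle1b and -0.68, -0.69 and 0.00 in Ifnar1KO. The members' median was thus the lower one in Sle1b batches 1 and 2 and in Ifnar1KO batch 2. Most members were listed at 0 in batch 3. The fitted difference was also below 0 for all 4 cytotoxic cell markers tested (medians -0.84 and -1.15). The same held for 3 and 4 of the 4 plasmacytoid dendritic cell markers (-0.94 and -1.12). The sum of 8 myeloid markers was 166 FPKM in Sle1b GC replicate 1 and 0.0681 to 42.5 FPKM in the other 11, and that of 8 erythroid and platelet markers was 97.7 FPKM in that library and 0 to 26.4 FPKM elsewhere. The sum of 8 T cell markers was 7.30 to 36.7 FPKM in Sle1b non-GC, 29.1 to 73.7 in Sle1b GC, 8.20 to 22.9 in Ifnar1KO non-GC and 13.2 to 27.4 FPKM in Ifnar1KO GC libraries. Among 6 cytotoxic cell markers, 5 or 6 were at 0 in each Ifnar1KO GC library and 3 to 6 in each Sle1b GC library. Of defining markers, Lyz2 was at 28.4 FPKM and Hbb-bs at 38.5 FPKM in Sle1b GC replicate 1, and both were at 0 in all 4 libraries of batch 3. Without Sle1b GC replicate 1 the members' median in Sle1b was -0.37. The part of these cells in the differences was not tested.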

How the data were processed

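RNA was measured in 12 sorted B cell libraries made with the SMARTer Ultra Low Input v3 and Nextera XT kits, per the labels' protocols; stranded counting is not stated. The submitters' processing notes list, with the build GRCm38, Cufflinks 2.2.1, Cuffdiff, TopHat2 2.0.9, CASAVA and Bowtie2 2.1.0. The authors deposited FPKM values in 17 tables that each compare 2 libraries of a batch, with the batch in the table's name. Each library's values were joined within its batch by least squares on the scale of the tables, so levels across batches come from separately normalised tables. From these, log2(FPKM + 1) was fitted in all 4 groups with limma 3.58.1 (R 4.3.3; moderated test, trend on mean expression, batch as a block, 6 residual degrees of freedom); p-values were adjusted by Benjamini and Hochberg over all genes tested. The log2(FPKM + 1) scale understates the change of low genes. The fitting script was tested on simulated data.

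Replicate number equals batch. Deviations from the group means were correlated within each batch (lowest 0.289, 0.401 and 0.524 in batches 1, 2 and 3), but across batches correlations reached 0.455, 0.455 and -0.275, which sets only batch 3 apart. The pairing rests on the batch in the tables' names. Named genes are those with the smallest p in each comparison (10 by cell type, 5 by genotype and interaction), the highest of each complex, all of complex II, members with 1 sign in all 6 pairs, isoform families and those nearest the filter. Results on 1 member and 1 marker gene are not reported here. Members and lists were chosen with earlier results of these data known. Loci shared with other genes (Atp5o, Ndufb2, Ndufb8) and genes with processed pseudogenes are uncertain.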

Additional observations from a re-analysis of the deposited data

How the results depend on the processing

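No member passed an adjusted p of 0.05 in limma under any of the alternatives run, and leaving out each library in turn gave 0 to 0 called members in every comparison. The median difference of the members in Ifnar1KO GC against non-GC was -1.14 with a pseudocount of 0.1 and -0.16 with recentred libraries. Between genotypes in GC cells the median was 0.0219 with recentred libraries and -0.000443 without batch 2, and the interaction median was 0.0585 with recentred libraries; the causes were not tested. Atp5b in Sle1b was 0.0222 without batch 3, and 0.0222 in batches 1 and 2 with the filter redone. Leaving out single libraries gave medians of -0.62 to -0.31 for GC against non-GC in Sle1b, -0.88 to -0.50 in Ifnar1KO, -0.20 to 0.20 between genotypes in non-GC cells, -0.39 to -0.0211 in GC cells and -0.47 to -0.08 for the interaction. With no replicate block, 0 members passed and the medians stayed at -0.52 and -0.62, while members at an unadjusted p under 0.05 numbered 0 in Sle1b and 2 in Ifnar1KO, against 8 and 13 with the block. Over all genes, batches 1 and 2 with the filter redone (12257 genes) gave 7 and 38 calls for the cell type comparisons in Sle1b and Ifnar1KO, against 0 and 1, while leaving out batch 3 with the 14607 genes kept gave 0 and 0. Most members are listed at 0 in batch 3. Estimated reads on named genes were 1387000 to 10292000 there and 3988000 to 12822000 in batches 1 and 2, so these ranges overlap. Estimated reads on the members were 528 to 2232 in batch 3 and 3475 to 13145 in batches 1 and 2, without overlap. The cause of the zeros was not tested.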
